A study of Rattus norvegicus with 6 samples.

Results

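Insulin lowers glucose output by the liver through a chain of proteins that begins at its receptor, and the genes of that chain, together with the catalytic subunits of the energy sensor AMPK, were examined in rat liver. They were chosen by name as 10 genes, namely Insr, Irs1, Irs2, Pik3r1, Akt1, Akt2, Foxo1, Ppargc1a, Prkaa1 and Prkaa2. Of these 10, 8 were matched to a probe of the array by the RefSeq transcript that the probe is named for, with 1 probe each, out of 9627 genes and 26419 probes in all. Irs2 and Foxo1 were not matched to a probe and have no value here.

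The livers came from male Sprague Dawley rats. The dark tea group had received, by gavage into the stomach, a dark tea made with the fungus Eurotium cristatum, CGMCC No.8730, and the control group had received distilled water. Both groups were fed a 60% high-fat diet and are labelled 9 weeks. There was 1 single-colour array per liver sample, with 3 dark tea and 3 control arrays. No normal-diet group was analysed here, so each difference below is one between high-fat-fed rats with and without the tea. Whole liver was used, and fewer cells of a type cannot be told apart from less RNA per cell.

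Insulin binds the receptor kinase encoded by Insr, which phosphorylates the adaptors Irs1 and Irs2. These recruit PI3-kinase, whose regulatory subunit p85-alpha is the product of Pik3r1, and the lipid that PI3-kinase makes brings the kinases Akt1 and Akt2 to the membrane, Akt2 being the form most closely tied to insulin action on glucose. In liver, AKT keeps the transcription factor FOXO1 out of the nucleus and so silences genes of glucose production, for which FOXO1 works with the coactivator PGC-1-alpha, the product of Ppargc1a. AMPK, with Prkaa1 or Prkaa2 as catalytic subunit, is switched on when ATP falls and restrains fat and cholesterol synthesis. Much of this control acts on proteins by phosphorylation, which an array of transcripts does not measure.

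Intensities are given as log2 values, on which 1 unit is a doubling. The first control array was unlike the rest: control replicate 1 correlated with each of the other 5 at a Pearson r of 0.884 to 0.899, against 0.945 to 0.972 for pairs without it. Of 4872 named genes above the median level of all probes, 39.8% had their lowest value of the 6 in this array. The differences of the 8 measured genes and the list medians are therefore given with and without it, and those of other genes only in part. The median intensity was 87.1 to 95.3 over the dark tea arrays and 88.5 to 95.9 over the controls, and precision is limited by there being 3 arrays in each group. The labelled tissue was checked against 8 hepatocyte markers, albumin among them, whose mean log2 levels lay between 8.88 and 15.60. Of 39 markers of hepatocytes and 8 other cell types, 0 differed between the groups at an unadjusted p under 0.05 (limma). When control replicate 1 was left out, 1 of the 31 markers of other cell types did, the stellate cell gene Lrat (0.71, unadjusted p = 0.0473 by limma). Of all probes, 4.23% were at that threshold with the 6 arrays and 5.63% without control replicate 1. Counts this small do not show that cell composition was alike in the groups. The 5 pancreatic acinar cell markers had lower means with the tea, their summed log2 levels being 26.55 to 26.88 in the dark tea arrays and 27.46 to 28.38 in the controls. Their mean log2 levels were low, 4.85 to 6.45, 2 of the 5 were higher once control replicate 1 was left out, and their part in the results was not tested.

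None of the 8 genes passed the correction for testing all probes. The test was limma's moderated test on 26419 probes with Benjamini-Hochberg adjustment, where 1 probe passed (0.00379% of all), and the adjusted p of the 8 ran from 0.949 to 0.988. At an unadjusted p under 0.05 the count was 0 of 8, against 4.23% of all probes. Mean levels were higher with the tea for 6 genes and lower for 2, and the 8 had a median log2 fold change of 0.15, against 0.00 over all probes. Leaving out control replicate 1 gave 3 higher and 5 lower and the median was -0.15, against 0.01 over all probes. All 8 lay above the median level of all probes. Over the named genes above that level the median was 0.02 with all arrays, and -0.10 without control replicate 1, close to that of the 8. The receptor gene, lower with the tea, was the 1 gene of the 8 whose groups did not overlap. Of all probes, 4.87% were higher and 5.54% lower without overlap.

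The regions in front of Insr and Ppargc1a, which had the smallest p of the 8 genes, are shown from RefSeq (GRCr8) beside those of G6pc1 and Igfbp1, a pair of genes that insulin represses in liver through FOXO1. Each window has 300 bases, 250 before the annotated start and 50 after it, written 5′ to 3′ on the gene's own strand. Capitals mark matches, on either strand, to the FOXO consensus GTAAACA, to the core CAAAACA of the insulin response sequence and to the cAMP response element TGACGTCA.
Insr promoter, chr12:6128754-6129053, minus strand: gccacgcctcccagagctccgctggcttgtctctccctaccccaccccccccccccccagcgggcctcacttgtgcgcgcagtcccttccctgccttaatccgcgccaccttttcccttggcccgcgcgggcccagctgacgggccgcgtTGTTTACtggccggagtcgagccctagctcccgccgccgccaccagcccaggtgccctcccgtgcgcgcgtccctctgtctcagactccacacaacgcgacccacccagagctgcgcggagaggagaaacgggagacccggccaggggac
Ppargc1a promoter, chr14:63634058-63634357, plus strand: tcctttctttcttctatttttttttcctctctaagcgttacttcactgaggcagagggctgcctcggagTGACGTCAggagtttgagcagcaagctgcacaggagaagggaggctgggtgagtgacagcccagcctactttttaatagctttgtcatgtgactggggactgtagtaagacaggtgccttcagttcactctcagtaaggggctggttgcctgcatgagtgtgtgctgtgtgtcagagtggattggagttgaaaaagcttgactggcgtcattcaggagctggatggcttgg
G6pc1 promoter, chr10:86807409-86807708, plus strand: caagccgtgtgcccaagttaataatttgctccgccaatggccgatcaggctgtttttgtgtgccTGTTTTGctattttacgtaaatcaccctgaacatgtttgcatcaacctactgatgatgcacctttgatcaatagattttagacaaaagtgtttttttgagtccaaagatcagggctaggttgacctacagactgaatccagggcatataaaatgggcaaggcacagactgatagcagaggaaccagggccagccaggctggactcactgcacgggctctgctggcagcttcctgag
Igfbp1 promoter, chr14:86261027-86261326, plus strand: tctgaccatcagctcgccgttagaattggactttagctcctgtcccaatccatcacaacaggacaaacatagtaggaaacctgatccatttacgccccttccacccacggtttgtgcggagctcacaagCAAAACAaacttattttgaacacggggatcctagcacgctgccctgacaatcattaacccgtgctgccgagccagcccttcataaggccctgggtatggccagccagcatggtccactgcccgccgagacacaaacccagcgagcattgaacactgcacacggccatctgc
In the Insr window the FOXO consensus was found as its reverse complement, TGTTTAC, beginning 100 bases before the start. Of all 33469 windows of this length, 3.78% held it. The Ppargc1a window held the cAMP response element beginning 181 bases before the start, a motif found in 1.83% of all windows. Such an element, bound by CREB, is how fasting signals are known to raise Ppargc1a. The insulin response core began 186 bases before the start in G6pc1, as its reverse complement TGTTTTG, and 121 bases before it in Igfbp1, and 6.28% of all windows held it. Of the 10 genes chosen, 9 had a window in the table, and 0 of the 9 held the insulin response core. The GC box GGGCGG, a common promoter element that binds Sp1, was in 4 of the 9, namely Irs1, Pik3r1, Prkaa1 and Prkaa2, against 33.1% of all windows. A match of letters is a description of the window and does not show that a factor binds there.

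Insr, the gene of the receptor itself (probe NM_017071), had log2 intensities of 7.95, 7.85 and 7.44 in dark tea replicates 1, 2 and 3, against 8.52, 8.16 and 8.36 in control replicates 1, 2 and 3. Each dark tea array lay below each control, and the lowest was dark tea replicate 3. The means were 7.75 ± 0.27 with the tea and 8.35 ± 0.18 without it (SD, n = 3 each), a log2 fold change of -0.60 ± 0.30 (SE) with a 95% interval from -1.26 to 0.07. This is a level 1.51-fold lower with the tea, and it did not pass the correction (limma, unadjusted p = 0.0733, adjusted p = 0.949). An exact permutation test (two-sided, 10 splits) gave p = 0.1, and with 3 against 3 arrays no smaller p is possible. Leaving out control replicate 1 moved the difference to -0.51, and leaving out any 1 of the 6 arrays kept it between -0.70 and -0.44.

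**Figure D1:**
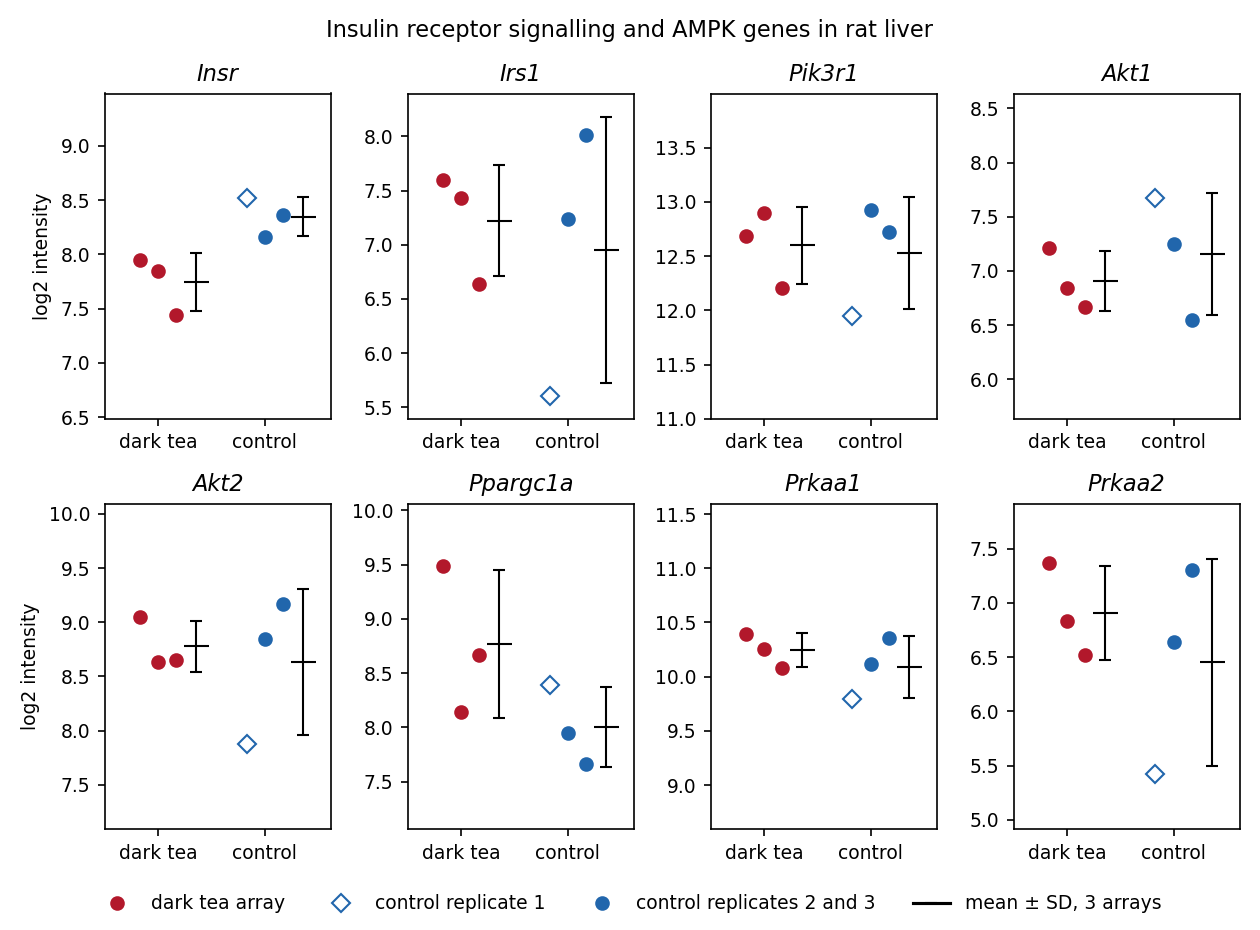
Log2 intensity (y axis, a range of its own in each panel) of the 8 measured genes in the dark tea and control arrays. Points are arrays, the open diamond is control replicate 1, and bars are the mean ± SD of 3 arrays. In Insr the 3 dark tea arrays, at 7.44 to 7.95, lie below the 3 controls, at 8.16 to 8.52, and in Irs1, Pik3r1, Akt2, Prkaa1 and Prkaa2 the open diamond is the lowest point.

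Irs1, the adaptor that the receptor phosphorylates (probe NM_012969), had log2 intensities of 7.60, 7.43 and 6.64 in the dark tea arrays and of 5.61, 7.24 and 8.01 in the controls. The controls held both the lowest and the highest of the 6 values, and the groups overlapped. The log2 fold change was 0.27 ± 0.55 (SE) with a 95% interval from -0.94 to 1.49. Of the 8 genes it had the largest distance between control replicate 1 and the mean of the other controls, -2.01 on the log2 scale. Without that array the difference turned to -0.40, with an interval from -1.19 to 0.39, so no direction can be given for Irs1.

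Pik3r1, the regulatory subunit of PI3-kinase that docks on the adaptors (probe NM_013005), had 12.69, 12.90 and 12.21 in the dark tea arrays, against 11.95, 12.93 and 12.72 in the controls. The values were bright in every array and overlapped, with control replicate 1 the lowest. The log2 fold change was 0.07 ± 0.36 (SE), with an interval from -0.72 to 0.85. It was -0.23 without control replicate 1 and -0.08 without dark tea replicate 2.

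For both AKT genes the difference between groups was smaller than the spread between control arrays. Akt1 (probe NM_033230) had 7.21, 6.84 and 6.67 in the dark tea arrays and 7.67, 7.25 and 6.55 in the controls. Akt2 (probe NM_017093) had 9.05, 8.63 and 8.65 in the dark tea arrays and 7.88, 8.85 and 9.17 in the controls. In both genes the dark tea values fell inside the range of the controls, and control replicate 1 was the highest of the 6 for Akt1 and the lowest for Akt2. The log2 fold changes were -0.25 ± 0.36 for Akt1 and 0.14 ± 0.38 for Akt2 (SE), with intervals from -1.04 to 0.54 and from -0.69 to 0.98. Without control replicate 1 they were 0.01 and -0.23, each with the other sign.

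Ppargc1a, the coactivator gene that fasting and glucagon induce in liver (probe NM_031347), had the largest difference of the 8. Its log2 intensity was 9.49, 8.14 and 8.67 in the dark tea arrays and 8.39, 7.95 and 7.66 in the controls. Dark tea replicate 1 was the highest of the 6, and dark tea replicate 2 lay under control replicate 1, so the groups overlapped. The means were 8.77 ± 0.68 with the tea and 8.00 ± 0.37 without it (SD, n = 3 each), a 1.70-fold higher level with a log2 fold change of 0.77 ± 0.39 (SE, 95% interval from -0.10 to 1.64). It did not pass the correction (limma, unadjusted p = 0.0778, adjusted p = 0.949), and the exact two-sided permutation p was 0.2.

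When control replicate 1 was left out, the Ppargc1a groups no longer overlapped. Of all probes, 9.96% were then higher and 11.1% lower without overlap. The log2 fold change was then 0.96 ± 0.38 (SE), with an interval from 0.15 to 1.78. Ppargc1a was then the 1 gene of the 8 at an unadjusted p under 0.05 (limma, 0.0237), against 5.63% of all probes in either direction, and its adjusted p was 0.829, where 6 probes (0.0227% of all) passed the correction. The size leaned on dark tea replicate 1, without which the difference was 0.40, the lowest over the 6 omissions, and the highest was 1.08.

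The catalytic subunits of AMPK overlapped between the groups. Prkaa1, which encodes the alpha-1 subunit (probe NM_019142), had 10.39, 10.26 and 10.08 in the dark tea arrays and 10.12 and 10.36 in control replicates 2 and 3, with 9.79 in control replicate 1. Its 6 values spanned 0.61 on the log2 scale, the narrowest range of the 8 genes. The log2 fold change was 0.15 ± 0.30 (SE), with an interval from -0.51 to 0.82, and it was 0.00 without control replicate 1, with an interval from -0.66 to 0.66.

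Prkaa2, which encodes the alpha-2 subunit (probe NM_023991), had 7.37, 6.83 and 6.52 in the dark tea arrays, against 5.42, 6.64 and 7.30 in the controls. Control replicate 1 was the low value, at about the level of that array's random control probe, 5.40. The log2 fold change was 0.45 ± 0.47 (SE), with an interval from -0.58 to 1.48. Without that array it was -0.06, with an interval from -0.82 to 0.69. The interval over all 6 arrays allows for Prkaa2 anything between 0.669-fold and 2.80-fold, so these data do not show that AMPK transcripts were alike in the groups.

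**Figure D2:**
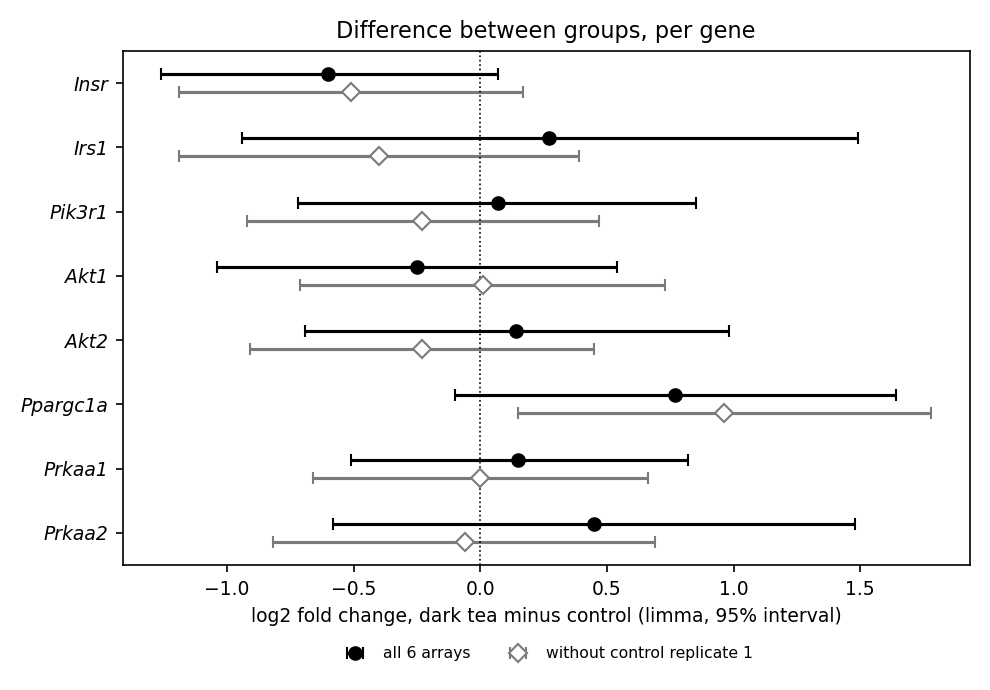
Log2 fold change, dark tea minus control (x axis), of each of the 8 measured genes with limma's 95% interval, over all 6 arrays (filled circles) and without control replicate 1 (open diamonds). Insr stays below 0 and Ppargc1a above 0 in both, and the interval of Ppargc1a clears 0 without control replicate 1, from 0.15 to 1.78.

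Paralogs were compared within each array. The log2 level of Akt2 minus that of Akt1 was 1.84, 1.79 and 1.98 in the dark tea arrays and 0.21, 1.60 and 2.62 in the controls. Prkaa2 minus Prkaa1 was -3.02, -3.43 and -3.56 in the dark tea arrays and -4.36, -3.48 and -3.06 in the controls. The 2 differences come from different probes, so only their change between groups can be read. The groups differed by 0.40 for the AKT pair and by 0.30 for the AMPK pair, with exact two-sided permutation p of 0.7 and 0.6, and 0.7 for both after Benjamini-Hochberg adjustment over the 2 pairs. Both differences turned negative without control replicate 1, at -0.24 and -0.07.

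In 5 of the 8 genes, Irs1, Pik3r1, Akt2, Prkaa1 and Prkaa2, control replicate 1 was the lowest of the 6 arrays, and in Insr and Akt1 it was the highest. The same array was lowest for 39.8% and highest for 17.8% of the named genes above the median level. The part of this array in each difference was measured by leaving it out. The sign turned in 5 genes, Irs1, Pik3r1, Akt1, Akt2 and Prkaa2, and stayed in Insr and Ppargc1a, while the Prkaa1 difference went to 0.00.

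Genes whose profile over the 6 arrays was most like that of the 3 genes with the smallest p were sought among the 4872 named genes above the median level. For Insr these were Gsr, the glutathione reductase gene, and Mpg, a DNA glycosylase gene, each with a Pearson r of 0.99 (n = 6 arrays), and of 0.98 without control replicate 1. Mpg differed by -1.42 ± 0.35 (SE) and Gsr by -0.77 ± 0.34, and neither passed the correction (limma, adjusted p = 0.949 for both). For Ppargc1a they were Btrc, a ubiquitin ligase subunit gene, with r = 0.97 (0.99 without control replicate 1), and S100b, a calcium-binding protein gene, with r = 0.95 (0.97 without it). For Prkaa2, Erg, an ETS family transcription factor gene, was among them, with r = 0.99, and 0.98 without control replicate 1. These are the highest of 4872 correlations over 6 arrays and only describe these arrays.

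The rest of the pathway was read from 9 lists of genes around the 8, with 96 of 143 listed genes measured. The 143 count G6pc1 also under its former symbol, G6pc. With the 6 arrays none of the 96 passed the correction. Without control replicate 1, 1 of them did, a gene of the insulin-induced list that is not reported here. At an unadjusted p under 0.05, 1.97% of all probes were higher and 2.26% lower with the tea, or 2.31% and 3.32% without control replicate 1, and the counts below are read against these shares.

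Of the insulin receptor and adaptor list, 18 of 23 genes were measured, 11 higher and 7 lower, their median was 0.08 on the log2 scale, and 1 was lower at an unadjusted p under 0.05. Leaving out control replicate 1 turned the list to 8 higher and 10 lower with a median of -0.08, so no direction can be given for it. The 1 gene was Irs3 in both cases, a further adaptor of the insulin receptor in rodents. Its log2 intensity was 5.56, 5.86 and 5.48 in the dark tea arrays, against 6.73, 6.82 and 6.43 in the controls. The groups did not overlap, and the dark tea values stood little above the random control probe, which lay at 5.06 to 5.15 in those arrays. The difference was -1.02 ± 0.29 (SE), 2.03-fold lower with the tea (limma, unadjusted p = 0.00573, adjusted p = 0.949), and it was -0.99 without control replicate 1. Ptprf, a receptor phosphatase that can dephosphorylate the insulin receptor, had 6.98, 6.96 and 6.64 with the tea against 7.57, 7.13 and 7.70 without it, a difference of -0.61 ± 0.30 that missed the unadjusted threshold (limma, unadjusted p = 0.0723).

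The list of PI3-kinases and phosphoinositide phosphatases had 13 of 20 genes measured, 6 higher and 7 lower, with a median of -0.01 and 0 at an unadjusted p under 0.05 in limma. The near-even split rested on control replicate 1, without which 3 were higher and 10 lower and the median was -0.23. Over the named genes above the median level it was -0.10, and over all named genes -0.02. The list also holds genes under that level, such as Inppl1. Its leading genes were Inpp4b, a phosphatase that removes a signalling lipid of the pathway, with 0.58 ± 0.38 (SE), and the further regulatory subunit gene Pik3r2 with -0.42 ± 0.40.

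Among AKT kinases, their inhibitors and substrates, 11 of 19 were measured, 4 higher and 7 lower, with a median of -0.21, or -0.10 without control replicate 1. Pde3b, the phosphodiesterase through which insulin and AKT lower cAMP, was the 1 gene at an unadjusted p under 0.05. It had log2 intensities of 11.11, 10.61 and 10.45 in the dark tea arrays, against 8.02, 9.95 and 9.72 in the controls, so that each dark tea array lay above each control. The difference was 1.49 ± 0.48 (SE), a 2.81-fold higher level (limma, unadjusted p = 0.0112, adjusted p = 0.949). It was 0.89 without control replicate 1, the smallest of the 6 omissions, with an unadjusted p of 0.0162 by limma. Phlpp1, a phosphatase that switches AKT off, differed by -0.48 ± 0.35, and the AKT inhibitor gene Trib3 by -0.18 ± 0.32. Without control replicate 1 these were -0.24 and -0.02.

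**Figure D3:**
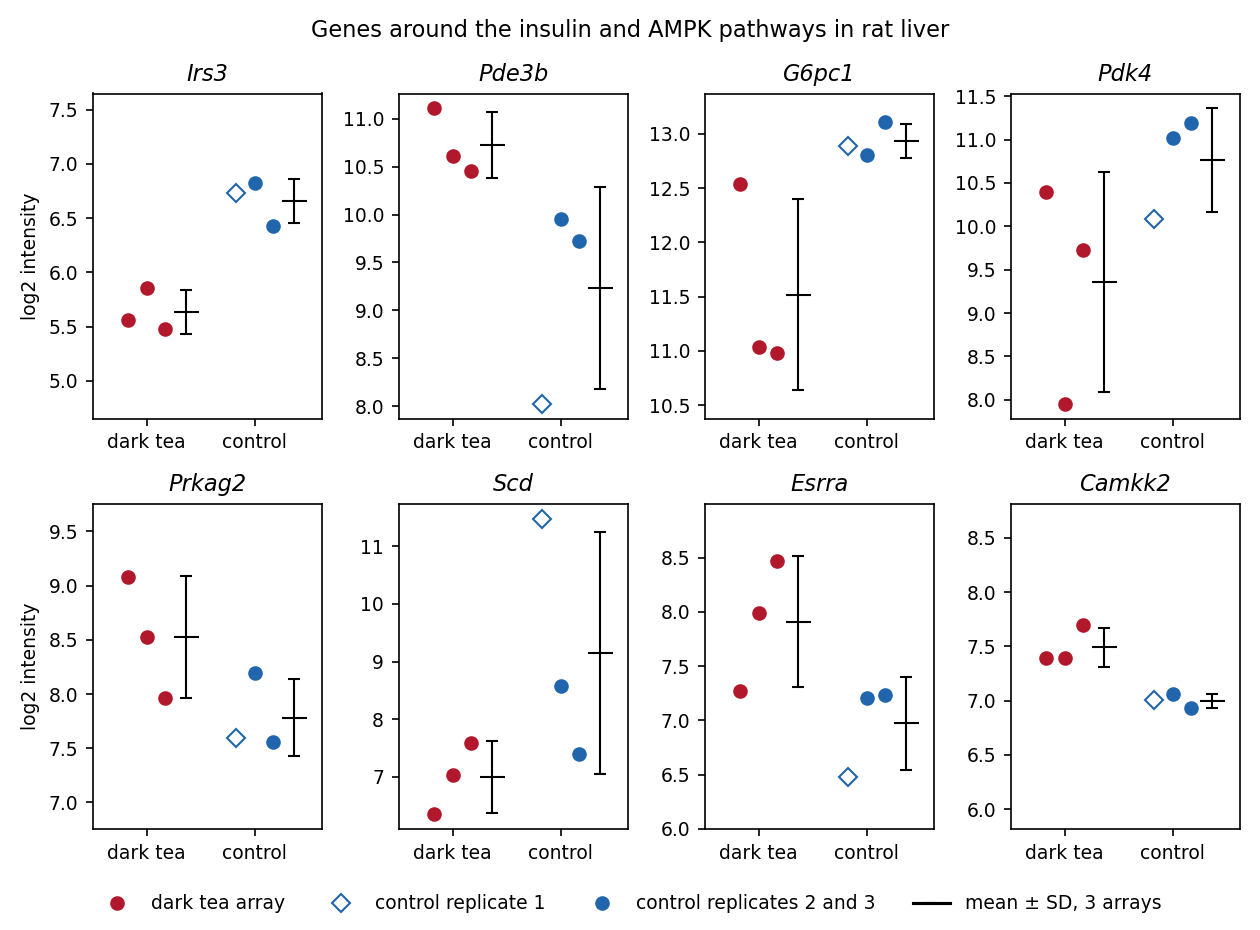
Log2 intensity (y axis, a range of its own in each panel) of 8 genes around the insulin and AMPK pathways in the dark tea and control arrays, with symbols as points for arrays, an open diamond for control replicate 1, and bars for the mean ± SD of 3 arrays. Pde3b, Esrra and Camkk2 lie higher and Irs3 and G6pc1 lower with the tea in every array, while the Scd control mean is raised by control replicate 1 at 11.48.

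In the list of FOXO factors and genes that insulin represses through them, 6 of 13 were measured, and none of the 6 was a FOXO factor. They were Ppargc1a, G6pc1, Pdk4, Igfbp1, Pck1 and Foxa2, a forkhead factor outside the FOXO family, which differed by -0.28 ± 0.35 (SE). The 13 also count G6pc1 under its former symbol, G6pc. Ppargc1a was the 1 gene with a higher mean. The median was -0.25, and 2 genes were lower at an unadjusted p under 0.05. Without control replicate 1 the median was -0.29, with 2 genes lower and Ppargc1a higher at that threshold. G6pc1, which encodes the enzyme that releases free glucose, had 12.54, 11.04 and 10.98 in the dark tea arrays, against 12.89, 12.81 and 13.11 in the controls. Each dark tea value lay under each control, dark tea replicate 1 only just. The difference was -1.42 ± 0.42 (SE), with an unadjusted p of 0.00714 and an adjusted p of 0.949 by limma.

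Pdk4, the kinase that blocks pyruvate oxidation in fasting, had 10.40, 7.95 and 9.73 in the dark tea arrays and 10.08, 11.02 and 11.19 in the controls. The groups overlapped through control replicate 1 and dark tea replicate 1. The difference was -1.41 ± 0.57 (SE, unadjusted p = 0.0333 by limma), and -1.75 without control replicate 1. Without dark tea replicate 2 it was -0.70, the smallest of the 6 omissions. Igfbp1, the insulin-repressed binding protein of insulin-like growth factors, had 15.08, 13.10 and 13.34 with the tea and 13.68, 13.95 and 14.35 without it, and differed by -0.15 ± 0.49. Pck1, the gene of the cytosolic enzyme that starts gluconeogenesis from oxaloacetate, differed by -0.22 ± 0.33. The difference between group means was thus above 0 for Ppargc1a and below 0 for G6pc1 and Pdk4, and none of the 3 passed the correction. Within the dark tea group the 3 genes were not opposed in this way, since replicate 1 had the highest value of each.

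Insulin-induced genes of hepatocytes were measured for 10 of 12, 2 higher and 8 lower, with a median of -0.25 and 2 genes lower at an unadjusted p under 0.05. When control replicate 1 was left out, the counts moved to 4 higher and 6 lower, with 2 genes lower at that threshold. The median moved to -0.54, against -0.02 over all named genes and -0.10 over those above the median level. Of the 10, 1 gene not reported here then passed the correction, as did 0.0227% of all probes. Scd, the stearoyl-CoA desaturase gene, was 1 of the 2 genes lower at the unadjusted threshold with all arrays. It had 6.35, 7.04 and 7.59 in the dark tea arrays and 11.48, 8.58 and 7.39 in the controls, and the groups overlapped. Its difference of -2.16 ± 0.83 (SE, limma, unadjusted p = 0.0262, adjusted p = 0.949) became -0.99 without control replicate 1, which was the highest of the 6 arrays. Scd then still met the unadjusted threshold (limma, unadjusted p = 0.0316, adjusted p = 0.853), with an interval from -1.89 to -0.10.

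The PGC-1 coactivators and partners had 8 of 15 genes measured and 8 higher with the tea, with a median of 0.39. Without control replicate 1, which was the lowest array for 6 of the 8, 6 were higher and the median was 0.09. Esrra, the nuclear receptor ERR-alpha through which PGC-1-alpha acts on mitochondrial genes, was the 1 gene at an unadjusted p under 0.05. It had 7.27, 7.99 and 8.47 in the dark tea arrays, against 6.48, 7.21 and 7.23 in the controls. The groups did not overlap, with dark tea replicate 1 just above the highest control. The difference was 0.94 ± 0.38 (SE, limma, unadjusted p = 0.0337, adjusted p = 0.949). Without control replicate 1 it was 0.69 with an unadjusted p of 0.0778 by limma, so that Esrra no longer met the threshold and Ppargc1a was the 1 gene of the list that did. Creb1, the factor that binds cAMP response elements, had 9.45, 9.39 and 9.49 with the tea against 6.41, 9.29 and 9.16 without it. Its difference of 1.15 ± 0.65 became 0.21 without control replicate 1. Ppargc1b, the closest relative of Ppargc1a, differed by 0.03 ± 0.29 and was chosen after its value was seen.

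AMPK subunits and upstream kinases were measured for 10 of 15, 7 higher and 3 lower, with a median of 0.13, or 0.01 without control replicate 1, and 0 at an unadjusted p under 0.05 in limma. Prkag2, a regulatory gamma subunit that senses AMP, had 9.08, 8.53 and 7.96 in the dark tea arrays, against 7.59, 8.19 and 7.56 in the controls. The groups overlapped through dark tea replicate 3 and control replicate 2, and the difference was 0.74 ± 0.36 (SE, unadjusted p = 0.0690 by limma). Camkk2, a calcium-dependent kinase that activates AMPK, had 7.39, 7.39 and 7.70 with the tea against 7.01, 7.06 and 6.93 without it. Its groups did not overlap, and the difference was 0.49 ± 0.28 (unadjusted p = 0.112 by limma).

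AMPK substrates were measured for 11 of 16, 5 higher and 6 lower, with a median of 0.00, or 4 and 7 with -0.11 without control replicate 1, and 0 at an unadjusted p under 0.05 in limma. Acaca, the acetyl-CoA carboxylase gene of fat synthesis, had 7.91, 7.69 and 6.99 in the dark tea arrays, each below the controls at 7.96, 8.05 and 8.13, and differed by -0.52 ± 0.33 (SE). Gys2, the liver glycogen synthase gene, differed by 0.53 ± 0.33. For the mTOR complexes and their regulators 14 of 20 genes were measured, 2 higher and 12 lower, with a median of -0.18. The counts were 2 and 12 again when control replicate 1 was left out, but the 2 higher genes were Ddit4 and Prr5 in place of Tsc1 and Rps6. The median was then -0.15, against -0.10 over the named genes above the median level and -0.02 over all named genes. This list also holds genes under that level, Prr5 among them. None of the 14 was at an unadjusted p under 0.05 with all arrays in limma, and the leading genes Mlst8 and Prr5, a subunit of both complexes and a subunit of the second, differed by -0.40 ± 0.36 and -0.40 ± 0.40. In both, control replicate 1 was the high value, and the differences were -0.05 and 0.02 without it. Prr5 had 4.89 to 5.45 in the dark tea arrays, about the level of the random control probe there, 5.06 to 5.15.

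**Figure D4:**
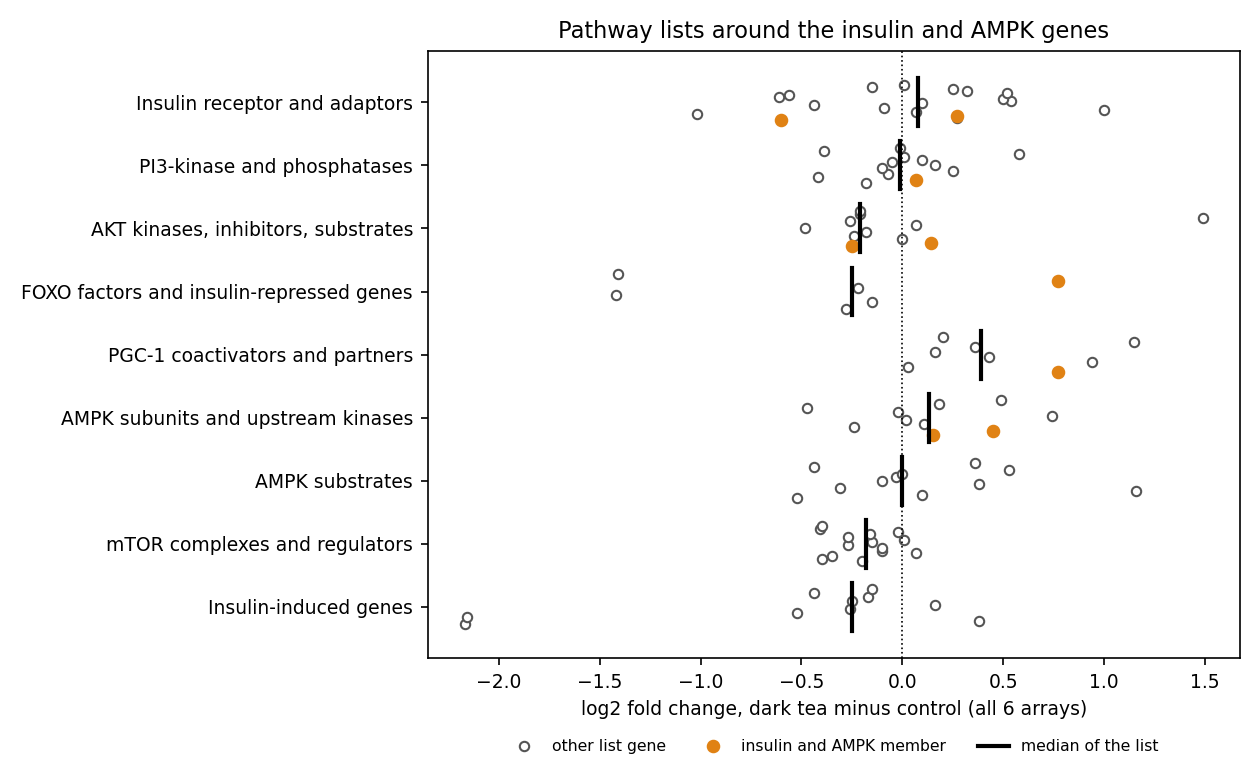
Log2 fold change, dark tea minus control over all 6 arrays (x axis), of the measured genes of 9 pathway lists. Filled points are the genes chosen by name, open points the other genes of each list, and the black bars the medians. These run from -0.25, for the FOXO and insulin-repressed list and for the insulin-induced list, to 0.39 for the PGC-1 list. The PGC-1 median was 0.09 without control replicate 1. No FOXO factor was measured.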

How the data were processed

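Liver RNA was measured on single-colour (Cy3) NimbleGen arrays, per the labels' protocols. The deposited values are linear intensities, 1 for each probe in each array. Per the submitters' processing notes the authors used RMA, which makes the distributions of arrays alike, with settings and version not given in the sources used here. Log2 was taken of the 26419 probes, after leaving out 1 random control row, with no further scaling. Transcript identifiers were matched without versions to a RefSeq table of GRCr8, which named 9747 probes and 9627 genes, with the highest-mean probe standing for a gene.

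Groups were compared by the two-sided test of limma 3.58.1 (eBayes, R 4.3.3), adjusted by Benjamini-Hochberg over all probes, at a threshold of 0.05, and with exact permutation tests. With 3 against 3 arrays those cannot give a p below 0.1. Whether replicates are separate animals is not in the labels, so a p-value here measures only how these samples spread, which may be technical. The fit was tested on simulated data with independent noise in each probe and array. Those data held no array that stood apart, so the test does not cover that feature of the real arrays. Named were the 10 genes, the 2 genes of each list with the smallest p, and Igfbp1, G6pc1, Pck1, Srebf1 and Trib3, of which Srebf1 was not matched to a probe. For the same reason a planned ratio of Irs2 to Irs1 was not computed. Some genes that this rule took are not reported here. The genes and lists were chosen with earlier results of these data known.

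The alternatives tried were a second quantile normalization, median centring, log2(intensity + 16), dropping dim probes, trended and robust eBayes, array weights, a replicate block, each array left out, averaging a gene's probes, Welch's test adjusted by Benjamini-Hochberg, an adjusted p under 0.1, and named probes only. Counts in the lists without control replicate 1 were added after seeing the data.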

Additional observations from a re-analysis of the deposited data

How the results depend on the processing

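Over 16 alternatives, 0 of 128 values of the 8 genes passed the correction, the lowest adjusted p being 0.482 with array weights (limma), and 7 had the other sign. These were Pik3r1 without dark tea replicate 2 (-0.08), Akt2 with array weights (-0.19), and 5 genes without control replicate 1. With 1 array left out, log2 fold changes ran from -0.40 to 0.80 for Irs1, -0.23 to 0.26 for Pik3r1, -0.55 to 0.01 for Akt1, -0.23 to 0.41 for Akt2 and -0.06 to 0.87 for Prkaa2, and each took the other sign without control replicate 1. Insr, Ppargc1a and Prkaa1 kept their sign under the alternatives run, Prkaa1 only at 0.0025 without control replicate 1. Some alternatives leave a difference as it is and cannot turn its sign. These are dropping dim probes, trended and robust eBayes, the replicate block, averaging probes, Welch's test and named probes only. Over the omissions of 1 array, the median over the 8 genes ran from -0.15 to 0.35. The Akt2 minus Akt1 difference then ran from -0.24 to 0.97 and the Prkaa2 minus Prkaa1 difference from -0.07 to 0.58, each lowest without control replicate 1. The probes past the correction numbered 1 with all arrays, 0 to 6 with an array left out (6 without control replicate 1), 27 with array weights, and 0 with Welch's test, which had 857 at an unadjusted p under 0.05. With the replicate number as a block, limma gave 0, with 787 at an unadjusted p under 0.05, and the Insr and Ppargc1a differences of -0.60 and 0.77 had unadjusted p of 0.121 and 0.0667. Insr was under 0.05 unadjusted with log2(intensity + 16) (limma, 0.0454) and with Welch's test (0.0417). Ppargc1a was under it without dark tea replicate 2 (limma, 0.0304) or without control replicate 1, while Welch's test gave it 0.183. Neither gene met it under the other alternatives. Deviations of same-numbered arrays from their group means correlated at -0.22, 0.01 and -0.25. These values cannot settle whether the numbers pair the samples, because control replicate 1 weighs on the deviation of each control array. Leaving out control replicate 1 gave 1 gene at an unadjusted p under 0.05, in place of 0, for the 8 genes (Ppargc1a), for the AMPK subunit list (Cab39l, lower) and for the mTOR list (Eif4ebp2, lower). The causes were not tested. The signal of probes near the random control limits genes such as Prkaa2, Irs3, Prr5, Mlst8 and Trib3.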
